A study of Sus scrofa with 6 samples.

Results

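Microvilli are fingers of plasma membrane that cover the apical face of absorptive epithelia, and 10 genes that build, anchor and link them are described here among the 17670 pig genes of the count table. They are PDZK1, NHERF1 and EZR, which tie membrane proteins to actin, VIL1 and ESPN, which bundle actin, and CDHR2, CDHR5, USH1C, ANKS4B and MYO7B, which join neighbouring microvilli at their tips. The genes were found by symbol, 1 row each, and all 10 had enough counts to be tested. They were chosen by function, in a list drawn up when the difference between control and treated cells in these same libraries was already known, PDZK1 and ANKS4B having been among its largest increases. Their levels and fold changes between the groups are therefore a description with no test, and they support nothing beyond themselves.

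The cells were labelled as cultured immature Sertoli cells, the nurse cells of the seminiferous tubule, from pig testis at 80 to 90 days of gestation, in 3 control and 3 treated libraries. The treated cells received AA2P, the sesquimagnesium salt hydrate of L-ascorbic acid 2-phosphate and a stable form of vitamin C, at 250 µM after 6 h in culture. All cells grew in serum-containing medium with antibiotics. The sources used here do not give the length of the treatment, the strain, or whether replicates were separate cultures or animals. The p-values and errors therefore measure the spread between these libraries, which may be technical.

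In a brush border, actin filaments are bundled by villin, espin, plastin and EPS8 and are held to the membrane by ezrin. Ezrin binds NHERF1, a small protein with PDZ domains (pockets that grip the tails of membrane proteins), and its relative PDZK1 adds further PDZ domains, so that transporters are kept in the membrane. The protocadherins CDHR2 and CDHR5 meet between the tips of adjacent microvilli, and inside the cell they are held by USH1C (harmonin), ANKS4B and the motor MYO7B, with CALML4 as a light chain. Such borders are best known from intestine and from the proximal tubule of the kidney.

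Levels are CPM, read counts scaled to the library's size and by the trimmed mean of M-values (TMM), from libraries of 18747307 to 23521291 counts. Of the 12 Sertoli cell markers looked for, 7 had a row: AMH lay between 32.7 and 37.8 CPM in all 6 libraries, while NR5A1, INHA and DHH, which help define the cell, were under 1 CPM in every library. SOX9, which drives Sertoli cell fate, was at 11.6 ± 0.648 CPM in controls and 2.22 ± 0.459 CPM with AA2P (SD, n = 3). WT1, also on the list, was at 40.7 ± 4.21 CPM in controls and 23.8 ± 4.20 CPM with AA2P. Both were called lower. Among 8 markers of tubule and duct epithelium 7 had a row and none of these was under 1 CPM throughout. The summed level of that list was 772 to 835 CPM in controls and 1318 to 1483 CPM with AA2P, with 5 genes called higher and 1 lower, and that of the Sertoli list was 444 to 472 and 255 to 311 CPM, with 0 higher and 3 lower. Single genes made up most of both shifts: LRP2, the endocytic receptor megalin, was at 80.1 ± 14.0 and 638 ± 144 CPM, and the keratin KRT18 at 372 ± 12.5 and 218 ± 22.5 CPM (SD, n = 3). EPCAM was called lower and KRT7 was not called. These values go against the label in part, so the cells are named here only as labelled. The stromal list summed to 59.2 to 63.0 CPM in controls and 14.9 to 21.0 with AA2P, the macrophage list to 27.0 to 29.8 and 18.7 to 22.7, and the endothelial list to 2.03 to 2.87 and 6.08 to 8.03. Leydig markers summed to at most 7.38 CPM and the germ cell gene DDX4 to at most 0.288 CPM in any library. CYP17A1, INSL3, ACTA2, MYH11, PDGFRA, PDGFRB, TEK, CSF1R and CD68, which help define these cells, were under 1 CPM in every library. Other genes of these lists were not. DES was at 39.1 ± 1.92 CPM in controls and 8.35 ± 1.83 CPM with AA2P, and COL1A1 at 21.0 ± 1.32 and 8.25 ± 2.27 CPM. CD14 was at 28.5 ± 1.73 and 20.5 ± 2.00 CPM, and all of these were called lower. PECAM1, at 2.26 ± 0.385 and 6.97 ± 0.875 CPM, was called higher. STAR, at 5.70 ± 0.131 and 6.68 ± 0.565 CPM, was not called (SD, n = 3). The part of these markers in the results below was not tested, and in bulk RNA fewer cells of a type cannot be told apart from less RNA per cell.

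Of the 10 microvillus genes, 9 were higher with AA2P and EZR was not. The differences ran from 1.29-fold for USH1C to 10.4-fold for ANKS4B and 13.9-fold for PDZK1, while ESPN was close to absent in controls. In edgeR's quasi-likelihood fit across all genes 9 of 10 passed an adjusted p of 0.05 as higher and 0 as lower, where 26.0% of the 12701 genes tested were called higher and 26.1% lower. With library totals in the place of TMM factors the calls over all genes shifted from 3302 higher and 3313 lower to 5727 and 1822. In 9 genes every AA2P library lay above every control library, and in EZR every AA2P library lay below, against 29.8% and 29.5% of all genes tested. Since the genes were chosen on this contrast, nothing is read from these shares.

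**Figure D1:**
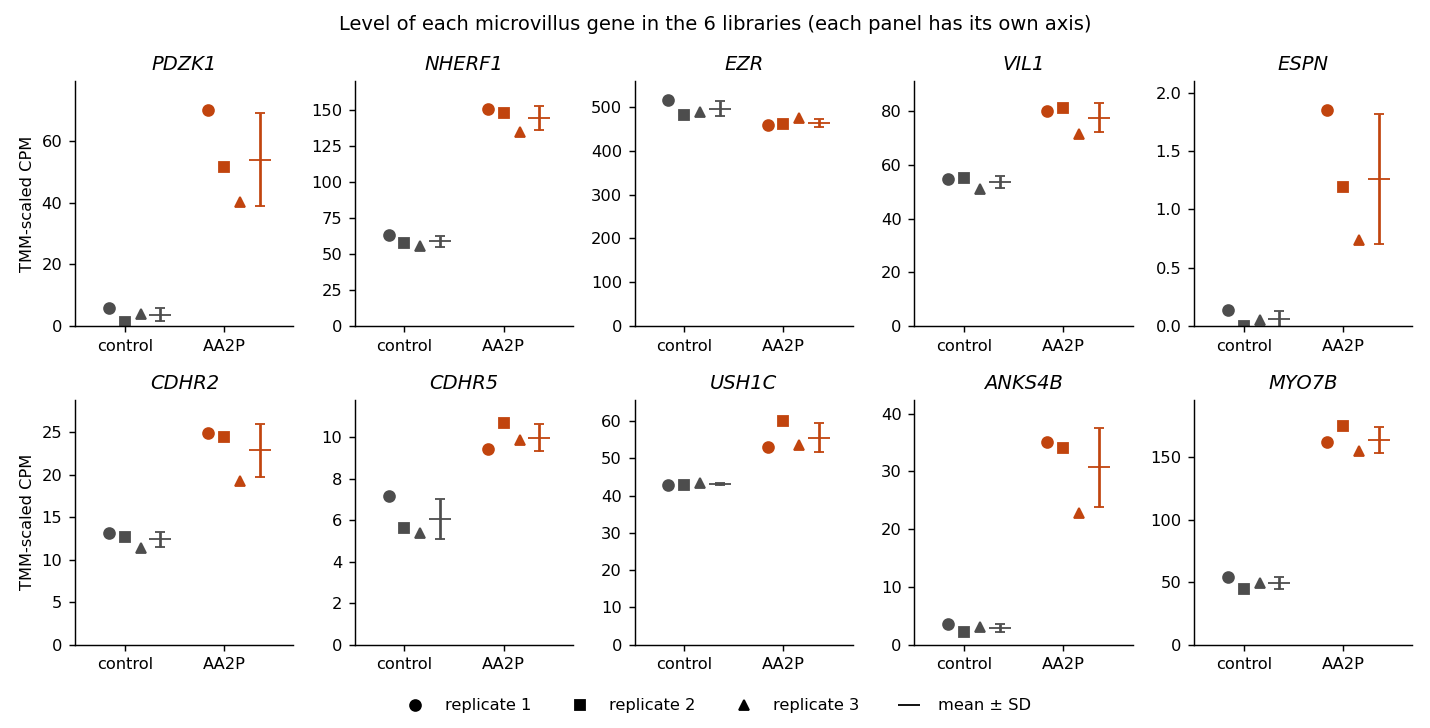
TMM-scaled CPM (vertical axis, from 0, a separate scale in each panel) of the 10 genes in the 3 control (grey) and 3 AA2P (orange) libraries, with marker shapes for the replicate number and the mean ± SD beside them. The groups are apart in every panel, with AA2P above control in all genes except EZR.

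The scaffold genes differed widely in how far they moved. PDZK1 was at 5.86, 1.38 and 3.93 CPM in control libraries 1 to 3 and at 70.1, 51.4 and 40.1 CPM in AA2P libraries 1 to 3. Control library 2 held 25 reads of PDZK1 against 130 and 81 in the others, and the lowest AA2P library was still 6.85 times the highest control. The group means were 3.72 ± 2.25 and 53.9 ± 15.1 CPM (SD, n = 3), a log2 fold change of 3.80 ± 0.257 (standard error).

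NHERF1, the partner of ezrin and of many transporters, was at 63.2, 57.5 and 56.0 CPM in controls and at 151, 148 and 135 CPM with AA2P. The replicates of each group lay close together, with a coefficient of variation of 6.51% in controls and 5.76% with AA2P. Its log2 fold change was 1.29 ± 0.0611, or 2.45-fold. Reads of PDZK1 per 100 reads of NHERF1 went from 9.27, 2.40 and 7.03 in controls to 46.5, 34.7 and 29.7 with AA2P. This compares reads and not molecules, because transcript lengths were not used.

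EZR, the linker between membrane and actin, was at 515, 482 and 489 CPM in controls and at 458, 460 and 475 CPM with AA2P. The groups did not overlap, but the highest AA2P library lay closer to the lowest control than the control SD of 17.0 CPM, and the log2 fold change of -0.09 ± 0.0471 did not pass. Its direction turned with the scaling, to 0.08 with library totals, and without AA2P replicate 3 it was called lower, at a log2 fold change of -0.11. Reads of NHERF1 per 100 reads of EZR were 12.3, 11.9 and 11.4 in controls and 32.9, 32.2 and 28.5 with AA2P, with no overlap between the groups.

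All 5 genes of the tip adhesion complex were higher with AA2P, over a range from 1.29-fold to 10.4-fold. CDHR2, the longer of the protocadherins, was at 13.2, 12.6 and 11.4 CPM in controls and at 24.9, 24.4 and 19.3 CPM with AA2P, a 1.84-fold difference. CDHR5, which meets CDHR2 across the gap between microvilli, was at 7.17, 5.62 and 5.39 CPM in controls and at 9.41, 10.7 and 9.86 CPM with AA2P, a 1.64-fold difference. The log2 fold changes of the pair were 0.88 ± 0.105 and 0.71 ± 0.125. They differed by 0.17 with a combined standard error of 0.164, which treats the genes as independent, so no difference is read.

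The cytoplasmic genes of the complex spread further apart. USH1C, the harmonin scaffold, had the tightest controls, at 43.0, 43.0 and 43.4 CPM, and was at 53.1, 60.1 and 53.5 CPM with AA2P. Its 1.29-fold difference was the smallest of the 9. ANKS4B, which bridges harmonin and the motor, was at 3.52, 2.20 and 3.01 CPM in controls and at 35.1, 34.1 and 22.8 CPM with AA2P. The means were 2.91 ± 0.661 and 30.7 ± 6.85 CPM (SD, n = 3), and the lowest AA2P library lay well above every control. MYO7B, the motor, was at 54.3, 44.9 and 49.6 CPM in controls and at 162, 175 and 155 CPM with AA2P. Its log2 fold change of 1.72 ± 0.0683, or 3.30-fold, lay between those of ANKS4B and USH1C.

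Both actin bundlers were higher with AA2P. VIL1 (villin), which bundles or severs actin depending on calcium, was at 54.7, 55.1 and 51.1 CPM in controls and at 79.9, 81.3 and 71.6 CPM with AA2P, a 1.45-fold difference with a log2 fold change of 0.53 ± 0.0623. ESPN (espin), a bundler better known from the stereocilia of hair cells, had 3, 0 and 1 reads in controls 1 to 3 and 37, 24 and 18 reads with AA2P. Controls were at or under the 3 counts that a count of 0 allows (0.135 to 0.165 CPM in controls), and ESPN passed the filter on low counts only through the AA2P group. From the pooled reads, 4 against 79, the ratio was 18.7 with a 95% Clopper-Pearson interval of 7.01 to 70.2, which covers counting error only. The fitted log2 fold change of 4.12 ± 0.611 rests on the same few reads, and without control replicate 1 it was 5.28.

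Ordered by fold change, the genes fell into an upper group of ESPN, PDZK1 and ANKS4B, whose neighbours differed by 0.31 and 0.43 on the log2 scale, with combined standard errors of 0.663 and 0.313. ANKS4B and MYO7B were separated by 1.65 ± 0.192, the widest gap between neighbours in the order. MYO7B and NHERF1 differed by 0.43 ± 0.0916, NHERF1 and CDHR2 by 0.41 ± 0.122, and USH1C and EZR by 0.46 ± 0.0784 (combined standard errors). The order was set by the same values, so these gaps are a description. Among CDHR2, CDHR5, VIL1 and USH1C neighbouring pairs differed by 1.02 to 1.89 combined standard errors. The combined errors treat the genes of a pair as independent, although both were measured in the same libraries. They therefore do not decide whether such a pair differs. ESPN's place in the order rests on the few reads given above.

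The AA2P libraries were not alike. AA2P library 3 lay nearer the controls over all genes, with a mean Pearson correlation to the control libraries of 0.970, against 0.959 and 0.961 for libraries 1 and 2. It was still closer to its own group, at 0.9934 and 0.9945 to AA2P libraries 1 and 2, which correlated at 0.9953 with each other. Library 3 was the lowest AA2P library in 7 of 10 microvillus genes, whatever their fold change. The share of all tested genes in which it was lowest was not counted, so nothing is read from the 7. Among genes called higher by at least 2-fold, library 3 was the lowest in each of the 5 microvillus genes and in 69.5% of the 702 genes of the table. In the 5 genes that were at least 2-fold higher it reached 77.6% to 93.1% of the log2 difference of libraries 1 and 2 from the control mean: 77.6% in ESPN, 83.1% in ANKS4B, 85.2% in PDZK1, 89.2% in NHERF1 and 93.1% in MYO7B. The median over 701 of those 702 genes was 87.3%, with quartiles of 79.1% and 95.8%, and the median of the 5 genes, 85.2%, lay between those quartiles. Without it, the log2 fold changes of PDZK1, ANKS4B and CDHR2 were 3.98, 3.56 and 1.00.

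**Figure D2:**
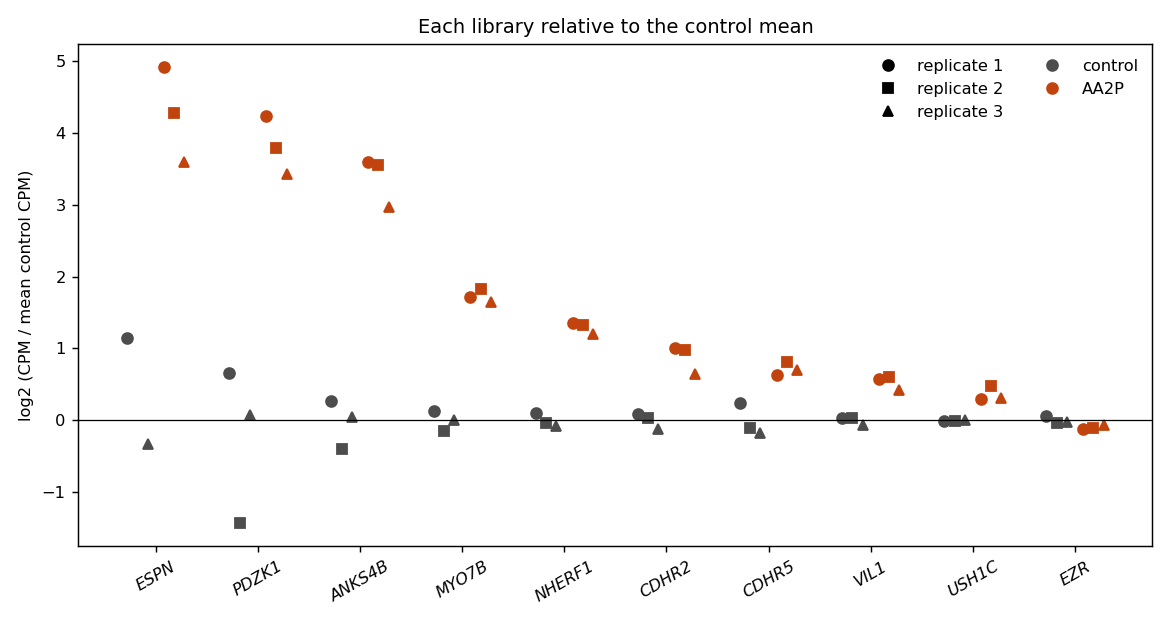
Log2 ratio of each library's CPM to the mean control CPM (vertical axis) for the 10 genes, ordered by fold change, with controls in grey, AA2P in orange and marker shapes for the replicate number. AA2P library 3 is the lowest of its group in 7 of 10 genes, and the share over all tested genes was not counted. Among genes called higher by at least 2-fold it is the lowest in all 5 drawn here and in 69.5% of the whole table. Control library 2 falls far below the other controls in PDZK1, and its ESPN count of 0 cannot be drawn.

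The control libraries lay far apart in PDZK1. Its coefficient of variation over the 3 controls was 60.4%, against 0.643% to 22.7% in the other genes except ESPN with its 4 reads, where it was 112%. For comparison, the median of the 1996 tested genes with control means of 2 to 10 CPM was 10.3% and 2 of those genes, PDZK1 included, reached 60.4%. Control library 2 was the lowest control in 5 of the 10 genes, namely PDZK1, ANKS4B, MYO7B, EZR and ESPN. In EZR it was at 482 CPM against 489 in control library 3, and in ESPN at 0 reads against 1. The share of all genes in which it was lowest was not counted, so nothing is read from the 5. Without control replicate 2 the log2 fold change of PDZK1 was 3.44, and without control replicate 1 it was 4.30.

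NHERF2, MYO7A and VILL, relatives of NHERF1, MYO7B and VIL1, were higher too, by amounts that differed from those of the microvillus genes. NHERF2, the second NHERF protein, rose 2.00-fold, from 23.7 ± 1.60 to 47.4 ± 2.84 CPM (SD, n = 3). MYO7A, the stereocilium counterpart of MYO7B, rose 2.02-fold, from 9.71 ± 0.939 to 19.6 ± 1.31 CPM. VILL, a villin-like gene, rose 3.69-fold, from 9.23 ± 1.18 to 34.3 ± 4.49 CPM, and VIL1 took 83.8% to 86.6% of the reads of the pair in controls and 68.5% to 71.1% with AA2P. Of the reads of NHERF1 and NHERF2 together, NHERF1 took 70.5% to 71.8% in controls and 74.7% to 75.9% with AA2P. The share of MYO7B in the reads of MYO7B and MYO7A was 82.6% to 84.4% in controls and 88.0% to 90.1% with AA2P. The edgeR quasi-likelihood adjusted p-values of NHERF2, MYO7A and VILL were 7.1e-09, 2.4e-07 and 7.1e-10. AVIL (advillin), another relative of VIL1, was named after its values were seen and was not called. It was at 1.87 ± 0.569 CPM in controls and 2.03 ± 0.167 CPM with AA2P (SD, n = 3). Its groups overlapped, with an adjusted p of 0.715 by edgeR, and its reads are not part of the VIL1 share.

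The relatives of ezrin depended on the scaling. Moesin (MSN) was at 732 ± 9.79 CPM in controls and 641 ± 12.8 CPM with AA2P (SD, n = 3) and was called lower at an adjusted p of 0.00193, but not with library totals, at 0.691. Radixin (RDX) was at 347 ± 12.3 and 375 ± 28.9 CPM with overlapping groups and an adjusted p of 0.116, and passed as higher with library totals (adjusted p of 0.000593) and without AA2P replicate 3 (0.00327). EZR took 30.7% to 32.3% of the reads of the 3 genes in controls and 30.3% to 32.8% with AA2P, so the groups overlapped.

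**Figure D3:**
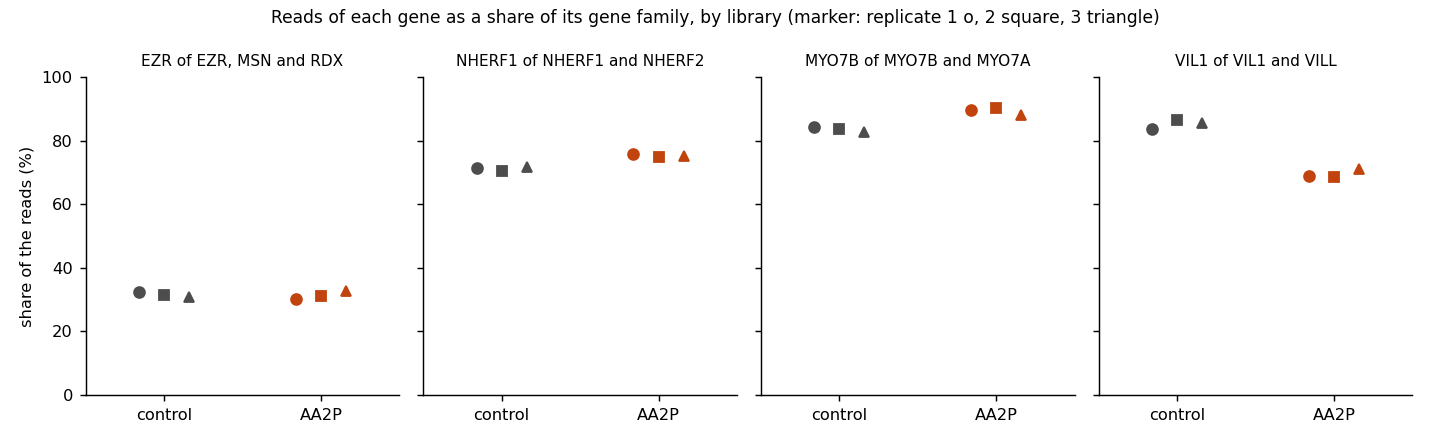
Share of reads (vertical axis, percent, 0 to 100) that each of 4 microvillus genes takes of its own reads and those of the relatives named above each panel. The 6 libraries are drawn with control in grey and AA2P in orange, and not every family member is included (AVIL is left out for VIL1). The groups overlap for EZR, lie apart with AA2P higher for NHERF1 and MYO7B, and lie apart with AA2P lower for VIL1.

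Beyond the 10 genes, 96 others of the microvillus and apical membrane were listed by function, of which 63 could be tested. With AA2P 29 (3 of them admitted by the count filter only through the AA2P libraries) were called higher and 20 lower, beside 26.0% and 26.1% of all genes tested. Their median log2 fold change was 0.18, where the median of all genes tested was -0.00. With library totals 34 were higher and 12 lower, while the median of all genes moved to 0.17. The lists were drawn up with earlier results of these data known.

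CALML4, the light chain of the tip complex motor, rose from 14.4, 15.2 and 14.3 CPM in controls to 59.6, 55.6 and 46.6 CPM with AA2P, a 3.69-fold change (adjusted p = 6.0e-11 by edgeR). Of 6 tested adhesion relatives 2 rose and 1 fell: the kidney cadherin CDH16 rose 2.28-fold to 75.4 ± 5.39 CPM (SD, n = 3) and PROM1, a marker of membrane protrusions, fell 2.19-fold to 55.0 ± 6.38 CPM. Of 14 tested genes of the actin core 5 rose and 5 fell, with a median of -0.06, or 6 and 3 with a median of 0.11 with library totals. PLS1 (plastin 1, the fimbrin of the brush border) rose 1.62-fold from 135.7 ± 2.00 CPM, and the tip protein EPS8 and its relative EPS8L2 rose 1.27-fold and 1.55-fold. Those that fell, named after their values were seen, were the severing protein GSN (gelsolin, 1.41-fold), the plastin PLS3 (1.27-fold), the bundler FSCN1 (fascin, 1.23-fold), BAIAP2L1 (1.33-fold) and MISP (1.47-fold, with overlapping groups).

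Of 7 tested myosins 3 rose and 4 fell. MYO5B, which carries vesicles to the apical membrane, fell 1.98-fold, from 114, 112 and 106 CPM in controls to 53.8, 54.8 and 58.6 CPM with AA2P. Of the membrane-binding myosins, MYO1D fell 1.47-fold and MYO1E rose 1.43-fold. MYO1A, the classic brush border myosin of the intestine, lay between 0.110 and 0.451 CPM in all 6 libraries and was too low to be tested.

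Apical polarity and traffic genes went both ways, 4 of 12 rising and 4 falling, or 6 and 1 with library totals. The polarity genes PATJ and PARD6B rose 1.99-fold and 1.55-fold. STX3, which fuses vesicles with the apical membrane, rose 1.49-fold from 64.9 ± 1.35 CPM, while STXBP2, a protein that binds it, fell 1.51-fold from 92.6 ± 3.34 CPM (SD, n = 3). Of 8 tested ezrin and NHERF relatives, kinases and partners 3 rose and 3 fell, or 5 and 1 with library totals. CLIC5, which sits beside ezrin at the membrane, rose 2.13-fold, and STK10, a kinase of ezrin, fell 1.31-fold. CLIC4 fell 1.26-fold but did not pass with library totals, at an adjusted p of 0.0655.

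**Figure D4:**
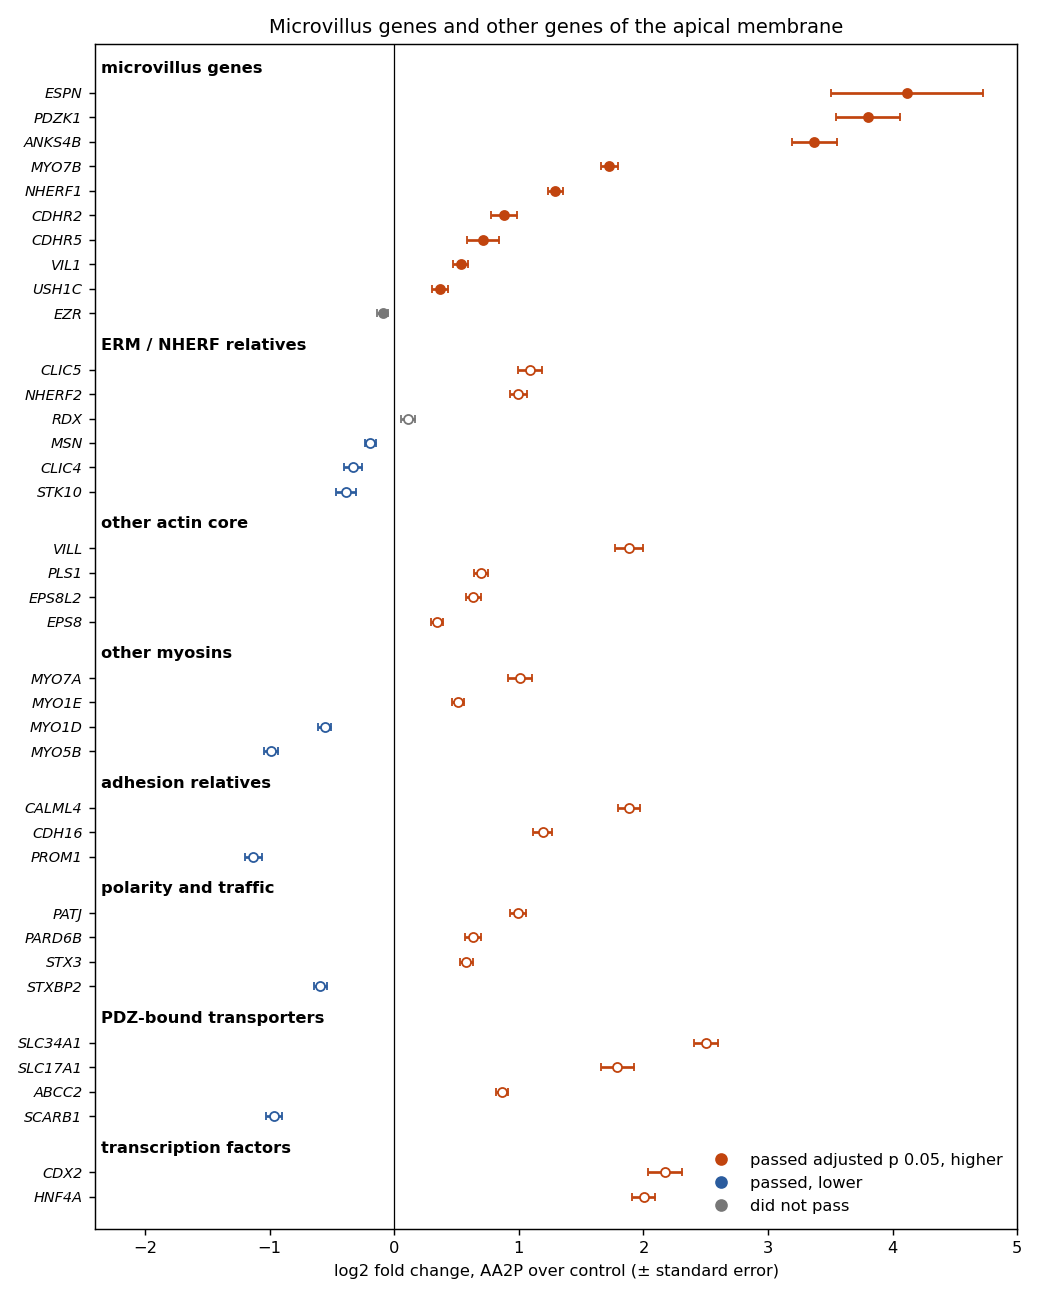
Log2 fold change of AA2P over control with its standard error (horizontal axis) for the 10 microvillus genes (filled) and named genes of 7 other lists (open), in orange where called higher, blue where called lower and grey where not called. The 10 genes run from -0.09 for EZR to 4.12 for ESPN. Calls in both directions appear among the drawn genes of every other list except the actin core and the transcription factors. Over the whole actin core list 5 genes were called higher and 5 lower, and those called lower are not drawn.

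Of 9 tested transporters that PDZ scaffolds hold, 6 rose and 3 fell. The count filter admitted SLC34A3, SLC9A3 and SLC15A2, all called higher, only through the AA2P libraries, and CFTR, called lower, only through the controls, so the direction of these 4 is a description. Of the other 5, 3 rose and 2 fell. SLC34A1, the sodium-phosphate cotransporter that binds both NHERF1 and PDZK1, rose from 37.2, 30.1 and 28.9 CPM in controls to 191, 200 and 156 CPM with AA2P, a 5.67-fold change (adjusted p = 7.4e-12 by edgeR). SLC17A1 and the export pump ABCC2, both partners of PDZK1, rose 3.46-fold and 1.82-fold. SCARB1, the lipoprotein receptor that depends on PDZK1 in liver, fell 1.95-fold, from 184 ± 4.05 to 94.0 ± 9.24 CPM (SD, n = 3), and its groups did not overlap.

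Transcription factors of tubule and gut epithelium were called higher in 6 of 7 tested and lower in 0 in edgeR's fit, beside 26.0% and 26.1% of all genes. The seventh, KLF5, was at 12.4 ± 0.171 and 10.9 ± 0.262 CPM (SD, n = 3), with an unadjusted p of 0.0731 and an adjusted p of 0.121. HNF4A was at 41.7, 34.2 and 39.8 CPM in controls and at 163, 171 and 131 CPM with AA2P, a 4.01-fold rise. CDX2, known from gut, rose 4.50-fold to 9.34 ± 0.580 CPM (SD, n = 3). The adjusted p-values by edgeR were 4.2e-11 for HNF4A and 1.7e-09 for CDX2. As in PDZK1, control library 2 was the lowest control and AA2P library 3 the lowest treated library in HNF4A. No test links these factors to the microvillus genes.

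Genes that flank the 10 in the pig RefSeq annotation (Sscrofa11.1) were set beside them, since the counting method was unknown. Of 20 neighbouring coding genes 12 could be tested, and 5 were called higher, 1 lower and 6 neither, beside 26.0% and 26.1% of all genes. Of the 5, CRYM, OTOG and SYTL3 were admitted by the count filter only through the AA2P libraries. ABCC8, which was not called, did not reach the filter's level in every library of either group. Of the other 8 tested neighbours, 2 were called higher and 1 lower. The genes annotated as overlapping CDHR2 and VIL1 did not pass: GPRIN1 was at 1.39 ± 0.358 and 1.05 ± 0.178 CPM and USP37 at 53.8 ± 1.14 and 53.9 ± 4.20 CPM (SD, n = 3). PDZK1 overlaps a coding gene known only by a locus number, which had no row by that name. Next to ANKS4B, CRYM, a crystallin family gene, rose 4.76-fold from 0.640 ± 0.269 CPM, and next to EZR, SYTL3 rose 3.47-fold from 0.250 ± 0.178 CPM. These neighbours were chosen by position, and CRYM and SYTL3 were singled out after their values were seen.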

How the data were processed

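The authors deposited whole-number read counts per Ensembl gene for 6 pig libraries, not normalized, and every other value was computed from these counts. The submitters' processing notes name bcl2fastq and HISAT2 2.0.5. The sources used here do not give the counting tool, strand setting, annotation or genome build, so overlapping genes and near-identical copies are uncertain and no coordinates or sequences are printed. A symbol was found for 13141 of 17670 identifiers.

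The groups were compared with edgeR 4.0.16 (R 4.3.3). Genes were filtered with filterByExpr, libraries were scaled by TMM, and group was the only term of a quasi-likelihood F test. Benjamini-Hochberg adjustment ran over 12701 genes, and calls were made at an adjusted p of 0.05. The procedure was tested on simulated counts. Standard errors were taken from the F statistic, as the size of the log2 change divided by its root. No set test was run. Libraries 1 to 3 of the groups share numbers, but no label pairs them, so they were not paired. Same-numbered libraries' deviations correlated at -0.04, -0.02 and -0.06. With only 3 libraries in each group, these values do not decide whether same-numbered libraries shared a culture or animal.

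The genes and lists were chosen with earlier results of these data known. Besides the 10 genes, the text names up to 4 called genes of each list by smallest p, and CALML4, MSN, RDX, MYO7A, PLS1, EPS8, MYO1A and HNF4A as close relatives, partners or regulators, and markers that define each cell type. Some genes that this rule takes are not reported here. Alternatives were DESeq2 1.42.0 (size factors and Wald test), limma-voom (limma 3.58.1), library totals, no filter, 1 CPM in 3 libraries, the replicate number as a block, and each library left out in turn.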

Additional observations from a re-analysis of the deposited data

How the results depend on the processing

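Of the 10 microvillus genes 9 were called higher under every alternative tried except a filter of 1 CPM in 3 libraries, which drops ESPN and gives 8. None was called lower, except that 1 (EZR) was without AA2P replicate 3, so that leaving out single libraries gave 0 to 1 lower. Over these genes and the 30 tested genes taken by the same rule from the other lists, EZR alone changed direction, to a log2 fold change of 0.0756 with library totals. With library totals 5727 genes of the whole table were called higher and 1822 lower, against 3302 and 3313, and 12 of the listed apical genes were lower against 20. The cause of this shift was not tested. The replicate block gave 3094 higher and 3110 lower genes, 9 and 0 of the microvillus genes and 29 and 20 of the listed apical genes, and changed no call among the 10 genes and those 30. No label says whether the shared numbers pair libraries. Leaving out single libraries gave 2869 to 3438 higher and 2845 to 3437 lower genes over the table. The alternative of a second length for levels per length was not run, because no transcript length was at hand, and so no levels were compared per length. Depth limits ESPN and MYO1A.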

Other observations

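PDZK1 was 1 of a small set of genes with a low level in control library 2. Of 11121 tested genes with a control mean of at least 2 CPM, 8 were in control library 2 at under 0.5 times the lower of the other controls, where control libraries 1 and 3 each had 2 such genes. PDZK1 had the lowest ratio, 0.350, followed by PKHD1, which encodes the ciliary protein fibrocystin, at 0.385 and the adhesion gene NRCAM at 0.408. The others with a symbol were PCK1, an enzyme of gluconeogenesis, KMO, of tryptophan breakdown, and ABAT, of GABA breakdown, at 0.468, 0.486 and 0.494. With AA2P 7 of the 8 were called higher and 0 lower in edgeR's fit, beside 26.0% and 26.1% of all genes tested. The 7 rose by 2.86-fold (KMO) to 25.1-fold (PKHD1). Of the genes low in controls 1 and 3, 0 were called higher and 1 and 2 were called lower, which is too few to compare. In those 7 the lowest AA2P library was 1.90 to 13.5 times the highest control. PKHD1 was at 10.0, 3.25 and 8.45 CPM in controls and 218, 206 and 135 CPM with AA2P, and PCK1 at 4.82, 2.20 and 4.71 and at 31.0, 26.3 and 19.4 CPM. The fold changes share control library 2 with the choice of these genes, which was made after the values were seen, and no cause was tested.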
